A study of Bos taurus with 21 samples.

Results

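The genes described here load peptides onto major histocompatibility complex (MHC) class I molecules and were measured in the muscle of cattle foetuses. They are the class I heavy chain genes *BOLA*, *JSP.1* and *LOC616942*, the light chain gene *B2M*, the transport and loading genes *TAP1*, *TAP2* and *TAPBP*, and the immunoproteasome genes *PSMB8*, *PSMB9* and *PSMB10*. These are 10 of the 12538 genes that could be named on the array. They were read by every non-control probe whose RefSeq transcript maps to one of them in the cattle annotation, which gave 24 of 43653 probes. The heavy chain genes had 8 of these probes and the other genes had 16. The genes were chosen by measured values, since earlier results of these arrays had shown such genes higher late in gestation and higher in one breed. Their stage and breed differences are therefore given as a description and without p-values.

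Muscle RNA came from 21 foetuses. Of these, 10 belonged to the muscular French beef breed Blonde d'Aquitaine (BA) and 11 to the Charolais (CH), which served for comparison. Each foetus was taken at 110, 180, 210 or 260 days post conception (dpc), in groups of 3, 2, 3 and 2 foetuses for BA and 2, 3, 3 and 3 for CH. All foetuses had different dams and each was measured on 1 single-colour array, so the replicates are separate animals. There were 3 males among the BA foetuses and 5 among those of CH, and all others were female. In BA, 2 of 3 foetuses were male at 110 dpc, 0 of 2 at 180 dpc, 1 of 3 at 210 dpc and 0 of 2 at 260 dpc. In CH, 0 of 2, 1 of 3, 2 of 3 and 2 of 3 were male at the same stages. Sex and stage were thus not balanced, and between 110 and 260 dpc the imbalance ran in opposite directions in the breeds. Each breed is represented by the offspring of only a pair of sires, Fallou and Oulou for BA and Indiana and Jourdan for CH. Both BA foetuses at 180 dpc were by Fallou, both at 260 dpc by Oulou and all CH foetuses at 210 dpc by Indiana, so sire and stage were not balanced. The labels name the muscle *Longissimus thoracis*, whereas the study's methods name *m. Semitendinosus*, and the labels do not give the myostatin genotype of any foetus.

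A class I molecule is a heavy chain paired with beta-2-microglobulin, encoded by *B2M*, and displays a short peptide from inside the cell to cytotoxic T cells. The peptides are cut by the proteasome, in which the interferon-inducible subunits encoded by *PSMB8*, *PSMB9* and *PSMB10* can take the place of those encoded by *PSMB5*, *PSMB6* and *PSMB7*. *TAP1* and *TAP2* encode the partner chains of the pump that carries peptides into the endoplasmic reticulum, and tapasin, encoded by *TAPBP*, holds the empty class I molecule beside that pump. Interferons induce most of these genes together, and mature skeletal muscle fibres are known for displaying little class I. Heavy chains are among the most polymorphic proteins of vertebrates, and cattle haplotypes carry different numbers of class I genes. A heavy chain probe can therefore read an allele or a related gene as well as an amount of RNA. The probe sequences were not analysed here, so which alleles each heavy chain probe reads was not tested.

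In the gene order of assembly ARS-UCD2.0, 8 of the 10 genes lie on chromosome 23. *TAP2* is followed after 2 other genes by *PSMB8*, *TAP1* and *PSMB9*, which are direct neighbours, and *TAPBP* comes 21 genes further on. *LOC616942* follows after another 473 genes, *JSP.1* after 37 more and *BOLA* after 4 more. *B2M* is on chromosome 10 and *PSMB10* on chromosome 18.

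Levels are given as normalized log2 intensity. This is the log2 of the processed intensity less the 75th percentile of its array, shifted to put the median probe of a typical array at 0, and a difference of 1 on this scale is a doubling. Probes well above background numbered 29017 to 34501 per array. Comparisons used limma's moderated test over the 20132 probes whose mean lay above 0 in at least 7 of the 8 groups, with Benjamini-Hochberg adjustment over all of them and a threshold of 0.05. Of the 24 member probes, 16 passed that filter, 5 of the heavy chain and 11 of the other genes, and these represent 9 of the 10 genes. The 8 that did not pass were all 3 probes of *JSP.1*, 2 of *TAP1*, 2 of *PSMB8* and 1 of *PSMB9*. A gene with several probes is described by its brightest tested probe, or for *JSP.1* by its brightest probe. No member value was saturated or missing. All 11 skeletal muscle markers with a probe, which include actin (*ACTA1*) and desmin (*DES*), were well above background on every array, and no probe was matched to titin (*TTN*). In bulk muscle, fewer cells of a type and less RNA per cell cannot be told apart.

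One array stood apart and is described before the comparisons, because it entered the earliest BA group. BA 110 dpc replicate 3, a male by Fallou, had the highest value of all 21 arrays for 20 of the 24 member probes. Among the 16 tested probes it was highest for 13, whereas it was highest for 10.3% of all tested probes. *PSMB9* read 4.41 there, against -0.08 and 0.84 in the other BA foetuses at 110 dpc, which is 16.4-fold above their mean. *PSMB8* read 4.23 against 0.08 and 0.90, which is 13.4-fold above. Every other array lay below it for both of these genes. *B2M* was 7.48-fold above the mean of the other BA foetuses of that age, *BOLA* 37.7-fold and *JSP.1* 29.9-fold. *LOC616942* was 25.9-fold above and ranked 2 of 21, just under BA 210 dpc replicate 3. *PSMB10* was 3.71-fold above, *TAP2* 2.82-fold and *TAP1* 2.01-fold. The other *TAP1* probes were well above background on only 1 of the 3 BA arrays at 110 dpc, so no fold is given for them. *TAPBP* was the exception, at 1.27-fold and rank 16 of 21.

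The same array carried high levels of other interferon-inducible genes. A list of 22 interferon response genes had 14 with a probe, of which 9 were well above background on every array. Its summed level, in units of the median probe, was 2760 in BA 110 dpc replicate 3 and 48.2 and 93.9 in the other foetuses of that group. The next highest sum was 603, in BA 210 dpc replicate 3. The BA foetuses at 180 dpc had 137 and 104, those at 260 dpc 59.0 and 62.6, and the 11 CH foetuses 42.0 to 85.0. A list of 24 leukocyte genes was read for the same arrays. Of these, 23 had a probe and 17 were well above background on every array. The defining markers *PTPRC*, *CD79A*, *CSF1R* and *CD14* were among the 17. The remaining defining marker, *CD3E*, was well above background on 13 of the 21 arrays and read -4.65, -4.35 and -1.38 in BA 110 dpc replicates 1, 2 and 3. The summed leukocyte level was 307 in BA 110 dpc replicate 3 against 203 and 232 in its group, ranked 3 of 21, and the groups ranged from 203 to 318 in BA and from 208 to 311 in CH. This sum gives most weight to the brightest genes. Among them, *CD4*, *LYZ* and *CD3D* read 5.86, 6.03 and 5.52 in this array, above the mean of replicates 1 and 2 by 0.25, 0.20 and 0.07. *CSF1R* and *CD53*, at 5.14 and 2.06, were above that mean by 1.65 and 3.19, and each was highest of all 21 arrays there. Gene by gene, all 23 leukocyte genes were higher in this array than in the mean of replicates 1 and 2, by a median of 0.98 (0.07 to 3.19) on the log2 scale, against a median of 5.38 for the interferon list. When the probes of a gene were averaged, the highest leukocyte sum of the BA 110 dpc group was 169 and that of any other group at most 150. The part that interferon or leukocytes have in the values below was not tested. Stage and breed differences of the probe describing each gene are given both ways where they moved by over 1.5 times or turned without this array.

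**Figure D1:**
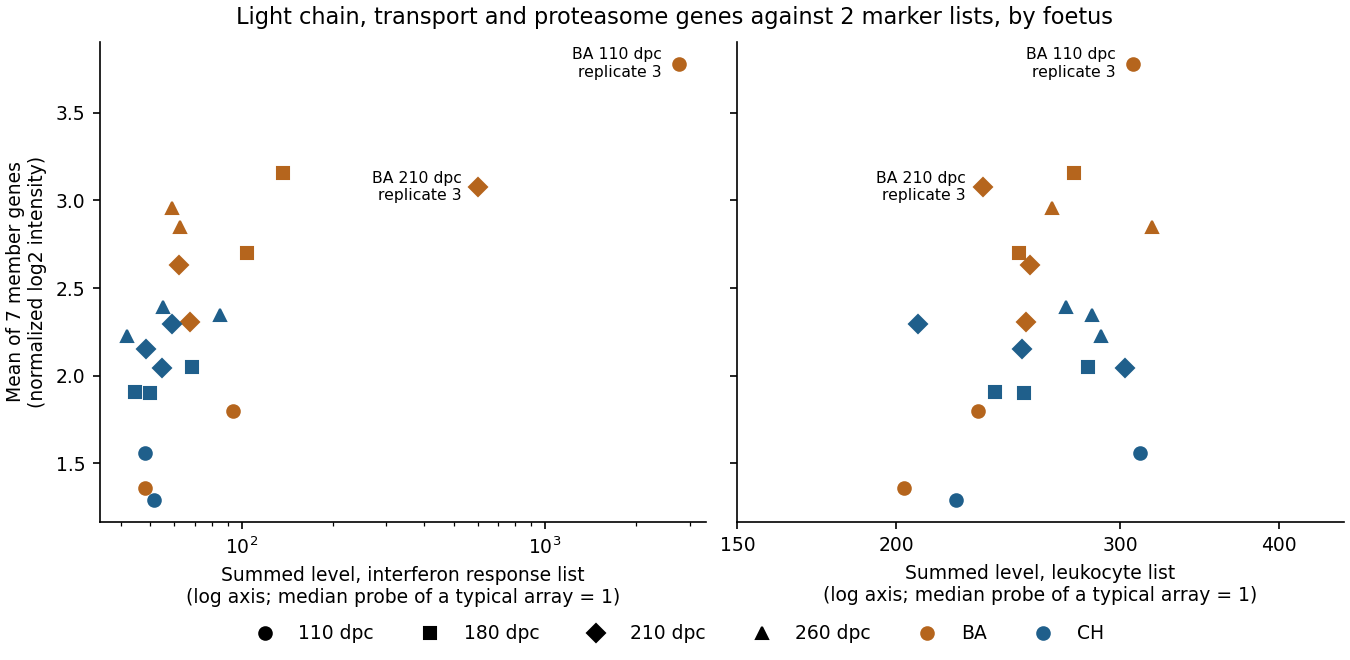
Mean normalized log2 intensity of 7 genes (*B2M*, *TAP1*, *TAP2*, *TAPBP*, *PSMB8*, *PSMB9*, *PSMB10*) in each foetus against the summed level of the interferon response list (left) and of the leukocyte list (right), both on log axes; points are foetuses, with breed by colour and stage by shape. BA 110 dpc replicate 3 has the highest mean, 3.78, and the highest interferon sum, 2760, while its leukocyte sum of 307 ranks 3 of 21.

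Group means of *BOLA*, *B2M* and the brightest *LOC616942* probe were lowest at 110 dpc in CH, and low values were also read in BA at 110 dpc apart from replicate 3. For *BOLA* (A_73_115812), the CH foetuses read 5.11 and 5.48 at 110 dpc, 5.56, 6.52 and 5.43 at 180 dpc, 7.46, 7.91 and 6.85 at 210 dpc, and 7.74, 6.44 and 8.80 at 260 dpc. The BA foetuses read 4.75, 3.87 and 9.55 at 110 dpc, 9.07 and 8.51 at 180 dpc, 7.02, 6.62 and 9.08 at 210 dpc, and 8.37 and 8.35 at 260 dpc. In CH every foetus at 210 and 260 dpc, except replicate 2 at 260 dpc, lay above all those at 110 and 180 dpc, whereas in BA the high level was already present at 180 dpc. The 260 minus 110 dpc difference was 2.37 (SE 1.15) in CH, or 5.16-fold, and 2.30 (SE 1.15) in BA. Without BA 110 dpc replicate 3 the BA difference was 4.05 (SE 0.72). In descending order of group means of this probe, only BA 180 dpc (8.79 ± 0.39 SD, n = 2) and BA 260 dpc (8.36 ± 0.02, n = 2) were neighbours whose foetuses did not overlap. After group means were removed, A_73_P098582 correlated with it at r = 0.997 and A_73_P041976 at r = 0.87. In CH, A_73_P041976 read 2.24 to 2.66 at 110 dpc, 3.58 to 3.73 at 180 dpc, 3.72 to 4.57 at 210 dpc and 4.84 to 5.04 at 260 dpc. Its CH stages thus overlapped only between 180 and 210 dpc.

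*LOC616942* (A_73_P098701), a further class I heavy chain gene, showed a similar order of ages. The CH foetuses read -1.26 and -0.40 at 110 dpc, 0.44, 0.94 and 0.15 at 180 dpc, 0.92, 0.93 and 1.34 at 210 dpc, and 2.40, 1.68 and 1.72 at 260 dpc. The BA foetuses read -0.69, -0.78 and 3.96 at 110 dpc, 2.87 and 2.46 at 180 dpc, 3.08, 1.59 and 4.01 at 210 dpc, and 3.45 and 3.01 at 260 dpc. In CH, the foetuses at 260 dpc all lay above every younger one and those at 110 dpc below every older one. The stage difference was 2.76 (SE 0.97) in CH, or 6.77-fold, and 2.40 (SE 0.97) in BA, or 3.97 (SE 0.56) without BA 110 dpc replicate 3 and 1.60 without replicate 2. This probe passed the filter through that array alone and fell below it when the array was left out. The second probe of the gene, A_73_108267, was lowest in CH at 180 dpc, and its stage difference was 0.72 in CH and 0.33 in BA (SE 0.43), or 0.76 in BA without the same array.

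*B2M* (A_73_116322), the light chain shared by all class I molecules, had a higher group mean at each older CH stage, with overlap between 180 and 210 dpc. The CH foetuses read 5.93 and 5.79 at 110 dpc, 6.54, 6.70 and 6.57 at 180 dpc, 6.87, 6.52 and 6.86 at 210 dpc, and 7.10, 7.96 and 8.24 at 260 dpc. The BA foetuses read 6.01, 6.03 and 8.92 at 110 dpc, 7.99 and 7.51 at 180 dpc, 7.62, 6.88 and 8.56 at 210 dpc, and 8.54 and 8.24 at 260 dpc. All CH foetuses at 260 dpc exceeded all younger CH foetuses, and BA foetuses at 260 dpc exceeded replicates 1 and 2 but not replicate 3 at 110 dpc. The difference was 1.91 (SE 0.63) in CH, or 3.77-fold, and 1.40 (SE 0.63) in BA, or 2.37 (SE 0.40) without BA 110 dpc replicate 3. All 4 *B2M* probes gave differences of 1.91 to 2.06 in CH and 1.40 to 1.59 in BA.

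**Figure D2:**
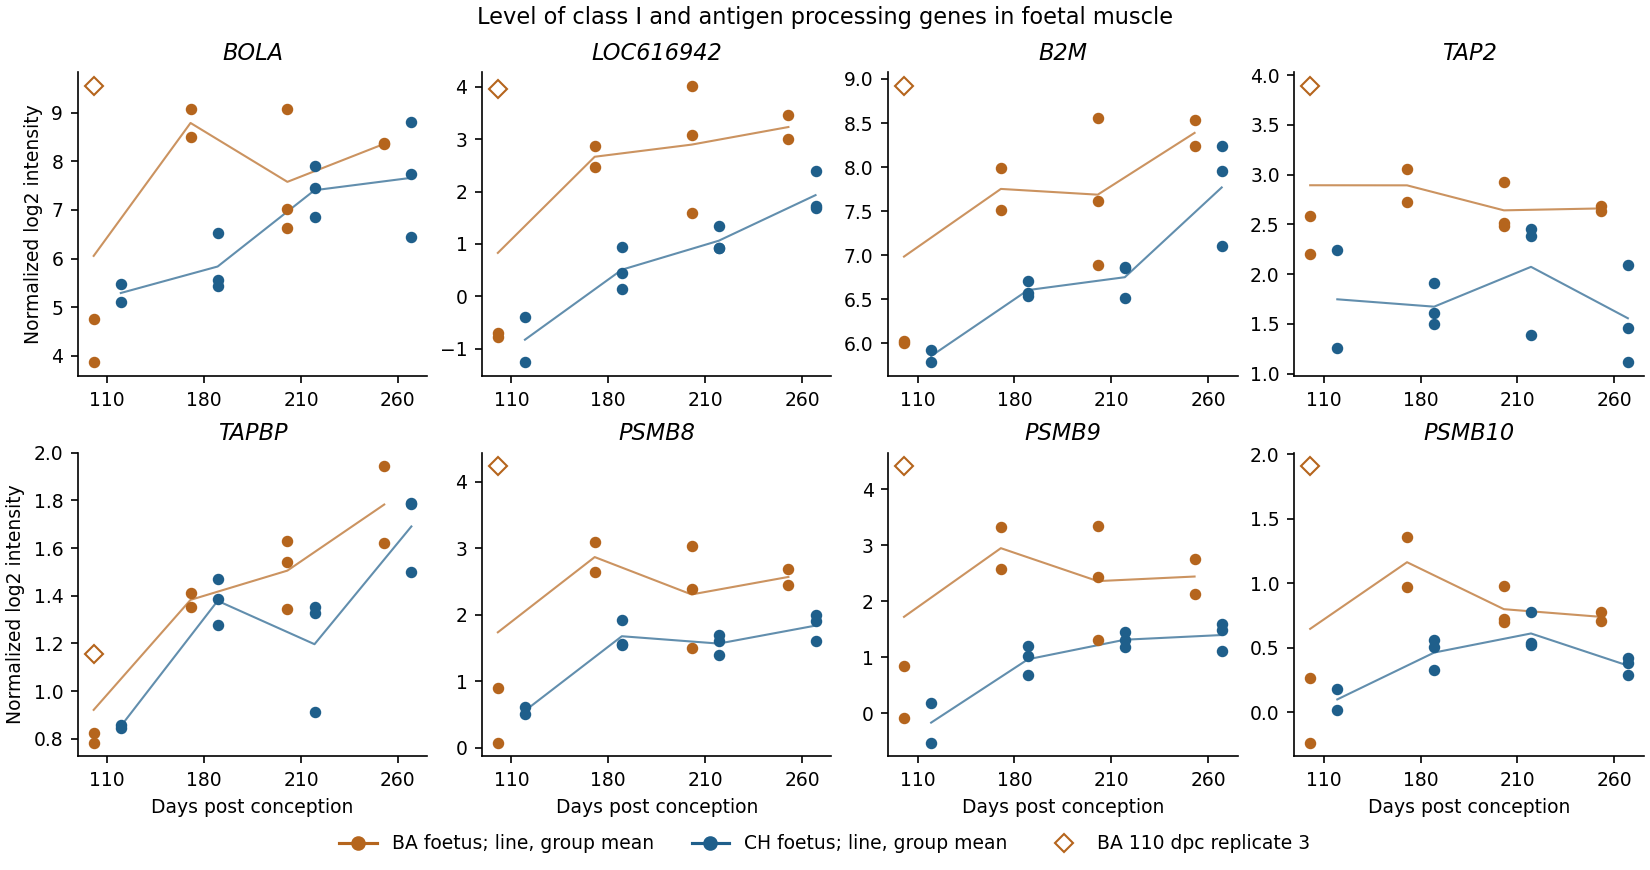
Normalized log2 intensity of 8 genes by gestational stage (dpc); points are foetuses, lines join the group means of BA and CH, and an open diamond marks BA 110 dpc replicate 3. Apart from that foetus, levels at 110 dpc were low in both breeds for *BOLA*, *LOC616942*, *B2M*, *PSMB8* and *PSMB9*, whereas the CH group mean of *TAP2* was 1.75 at 110 and 1.56 at 260 dpc.

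By the probes that describe them, the transport and loading genes differed less with stage. *TAPBP* (A_73_120583) read 0.85 and 0.86 in CH at 110 dpc and 1.50, 1.78 and 1.79 at 260 dpc. In BA it read 0.78, 0.83 and 1.15 at 110 dpc and 1.94 and 1.62 at 260 dpc. Neither breed overlapped between these ages, and the difference was 0.84 in CH, or 1.79-fold, and 0.86 in BA (SE 0.16 for each). *TAP1* (A_73_P390156) differed by 0.63 in CH and 0.45 in BA (SE 0.35), or 0.79 (SE 0.33) without BA 110 dpc replicate 3, with overlapping BA foetuses. *TAP2* (A_73_P051136) was the exception among the genes, at -0.19 in CH and -0.23 in BA (SE 0.43), and its BA value became 0.27 (SE 0.37) without BA 110 dpc replicate 3. The CH value of *TAP2* also turned positive, to 0.30 or 0.03, when CH 110 dpc replicate 2 or CH 260 dpc replicate 2 was left out. The other *TAP1* probes were not well above background in any CH foetus at 110 dpc. At 260 dpc CH was at least 2.00-fold higher for A_73_P035801. For A_73_P337561 the same calculation gave 1.36-fold, but only 1 of the 3 CH foetuses at 260 dpc was well above background, so this is no firm lower bound. Both values set the mean at 260 dpc against the lowest signal that was well above background. Without BA 110 dpc replicate 3 the log2 difference of A_73_P035801 was 3.36 in BA and 2.12 in CH, and that of A_73_P337561 2.43 and 2.04. For both probes, 0 of 2 CH and 1 of 3 BA foetuses at 110 dpc were well above background, so these sizes are uncertain.

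Among the immunoproteasome subunits, *PSMB9* (A_73_P294026) and *PSMB8* (A_73_107343) were lower at 110 dpc than at any later stage in CH. *PSMB9* read -0.52 and 0.19 in CH at 110 dpc, 1.02, 1.19 and 0.68 at 180 dpc, 1.45, 1.30 and 1.19 at 210 dpc, and 1.11, 1.48 and 1.60 at 260 dpc. In BA it read -0.08, 0.84 and 4.41 at 110 dpc, 3.32 and 2.57 at 180 dpc, 2.43, 1.31 and 3.34 at 210 dpc, and 2.76 and 2.13 at 260 dpc. All CH foetuses from 180 dpc on lay above those at 110 dpc, and so did all BA foetuses from 180 dpc on when compared with replicates 1 and 2 at 110 dpc. The *PSMB9* difference between 260 and 110 dpc was 1.56 (SE 0.85) in CH, or 2.96-fold. In BA it was 0.72 (SE 0.85), 2.06 (SE 0.48) without BA 110 dpc replicate 3 and -0.18 without BA 110 dpc replicate 1.

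*PSMB8* read 0.50 and 0.62 in CH at 110 dpc and 1.40 to 2.00 in the 9 older CH foetuses. In BA it read 0.08, 0.90 and 4.23 at 110 dpc and 1.50 to 3.09 later. Its difference was 1.28 (SE 0.75) in CH, or 2.43-fold, and 0.83 (SE 0.75) in BA, or 2.08 (SE 0.35) without BA 110 dpc replicate 3. *PSMB10* (A_73_P051686), which is encoded outside the MHC, differed by 0.26 in CH and 0.09 in BA (SE 0.38). The BA value was 0.72 (SE 0.17) without BA 110 dpc replicate 3 and -0.35 and -0.10 without replicates 1 and 2. With the authors' unscaled values the *PSMB10* difference over all arrays was -0.10 in CH and -0.32 in BA. The BA value was -0.00 after normexp background correction, so the direction for *PSMB10* depended on the scaling and, in BA, on single arrays. The remaining *PSMB9* probe, A_73_P461891, read 1.74 in CH 110 dpc replicate 2 and -3.28 to -1.78 in the other CH foetuses, and its CH difference was -1.09 (SE 1.28) while the other *PSMB9* probes gave 1.56 and 1.72.

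Over the 16 tested member probes, 15 had a higher mean at 260 than at 110 dpc in CH and 15 in BA, *TAP2* being the exception in each. The median difference was 1.82 in CH and 1.13 in BA, against 0.03 in each breed over all tested probes. For the 5 heavy chain probes it was 2.52 in CH and 2.30 in BA, and for the 11 other probes 1.56 and 0.83. Without BA 110 dpc replicate 3 the BA median was 3.82 for the 4 heavy chain probes still tested and 2.08 for the 11 others. In CH, 7 of the 16 were past the adjusted threshold in the higher direction, against 27.5% of all tested probes, namely the 4 *B2M* probes, *TAPBP*, *BOLA* A_73_P041976 and *LOC616942* A_73_P098701. In BA, 3 of the 16 were, against 27.6%, namely *B2M* A_73_P099506, *TAPBP* and *LOC616942* A_73_P098701. The 3 BA probes were also among those of CH, and 22.5% of all tested probes were past the threshold in both breeds. Since these contrasts chose the genes, nothing is read from the shares.

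Leaving out BA 110 dpc replicate 3 left 15 member probes above the filter, without *LOC616942* A_73_P098701. Of these, 12 then passed in BA, against 26.3% of all tested probes, with a median difference of 2.10, and 11 passed in CH, against 28.2%. Every CH foetus at 260 dpc lay above every CH foetus at 110 dpc for 14 of the 16 probes, against 35.7% of all probes. In BA the same held for 1 of 16, against 34.7%, and for 15 of 16, against 39.2%, when the 260 dpc foetuses were set against replicates 1 and 2 at 110 dpc.

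From 110 to 180 dpc the median difference over the 16 probes was 0.96 in BA and 0.72 in CH, with 14 and 13 probes higher. The BA median was 1.91, with all 15 tested probes higher, when BA 110 dpc replicate 3 was left out. From 180 to 210 dpc it was -0.20 in BA, with 3 probes higher, and 0.37 in CH, with 14 higher. From 210 to 260 dpc it was 0.34 in BA and 0.37 in CH. Arrays were scanned on 3 days, and the stage difference within a day could be taken from few foetuses. On the first day, 1 CH foetus at 260 dpc against 1 at 110 dpc gave 2.26 for *BOLA*, 1.32 for *B2M* and 0.93 for *PSMB9*. On the second day the CH differences for these genes were 2.51, 2.18 and 2.06, and the BA differences 4.06, 2.52 and 2.38. BA 110 dpc replicate 3 was scanned on the third day, which held no pair of these ages within a breed.

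All 16 tested member probes were higher in BA than in CH when the 4 stage differences were averaged. *PSMB9* was higher in BA by 1.49 (SE 0.41), *LOC616942* by 1.74 (SE 0.47), *BOLA* by 1.15 (SE 0.56) and *B2M* by 0.96 (SE 0.31). *TAP2* was higher by 1.01 (SE 0.21), *PSMB8* by 0.96 (SE 0.37) and *PSMB10* by 0.45 (SE 0.18). By the probes that describe the genes, *TAP1* (A_73_P390156), at 0.19 (SE 0.17), and *TAPBP*, at 0.12 (SE 0.08), differed least. This *TAP1* value was 0.10 without BA 110 dpc replicate 3 and turned to -0.22 when sire was a covariate. The other *TAP1* probes were not tested and were well above background on only 11 and 7 of the 21 arrays. Without BA 110 dpc replicate 3 they differed by 0.96 (A_73_P035801) and 0.83 (A_73_P337561), and these sizes are uncertain. The median over the 16 probes was 1.01, and over all tested probes -0.01. Only *TAP2* and the second *LOC616942* probe, A_73_108267, were past the adjusted threshold, 2 of 16 against 0.194% of all tested probes in that direction, and nothing is read from this share.

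For *TAP2* the BA foetuses read 2.20, 2.59 and 3.89 at 110 dpc, 3.06 and 2.73 at 180 dpc, 2.48, 2.52 and 2.93 at 210 dpc, and 2.69 and 2.63 at 260 dpc. The CH foetuses read 1.25 and 2.24, then 1.91, 1.50 and 1.61, then 2.38, 2.45 and 1.39, and 2.10, 1.11 and 1.46 at the same stages. All BA foetuses except the first at 110 dpc exceeded all CH foetuses, the closest with 2.48 in BA against 2.45 in CH. The excepted foetus, at 2.20, lay below the CH foetuses at 2.24, 2.38 and 2.45. *TAP2* was thus mostly higher in BA, with little difference between stages. The share of all tested probes with such an order was not counted, and nothing is read from it.

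Without BA 110 dpc replicate 3 the average breed difference was 1.16 for *PSMB9*, 1.35 for *LOC616942*, 0.71 for *BOLA*, 0.72 for *B2M*, 0.88 for *TAP2*, 0.65 for *PSMB8* and 0.30 for *PSMB10*. All 15 tested probes were then higher in BA, with a median of 0.72. Past the threshold were 5 of them, *TAP2*, both tested *PSMB9* probes, *BOLA* A_73_P041976 and *LOC616942* A_73_108267, against 0.244% of all probes. At 110 dpc alone the median breed difference was 1.11 with that array and 0.09 without it, when 8 of 15 probes were higher in BA.

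**Figure D3:**
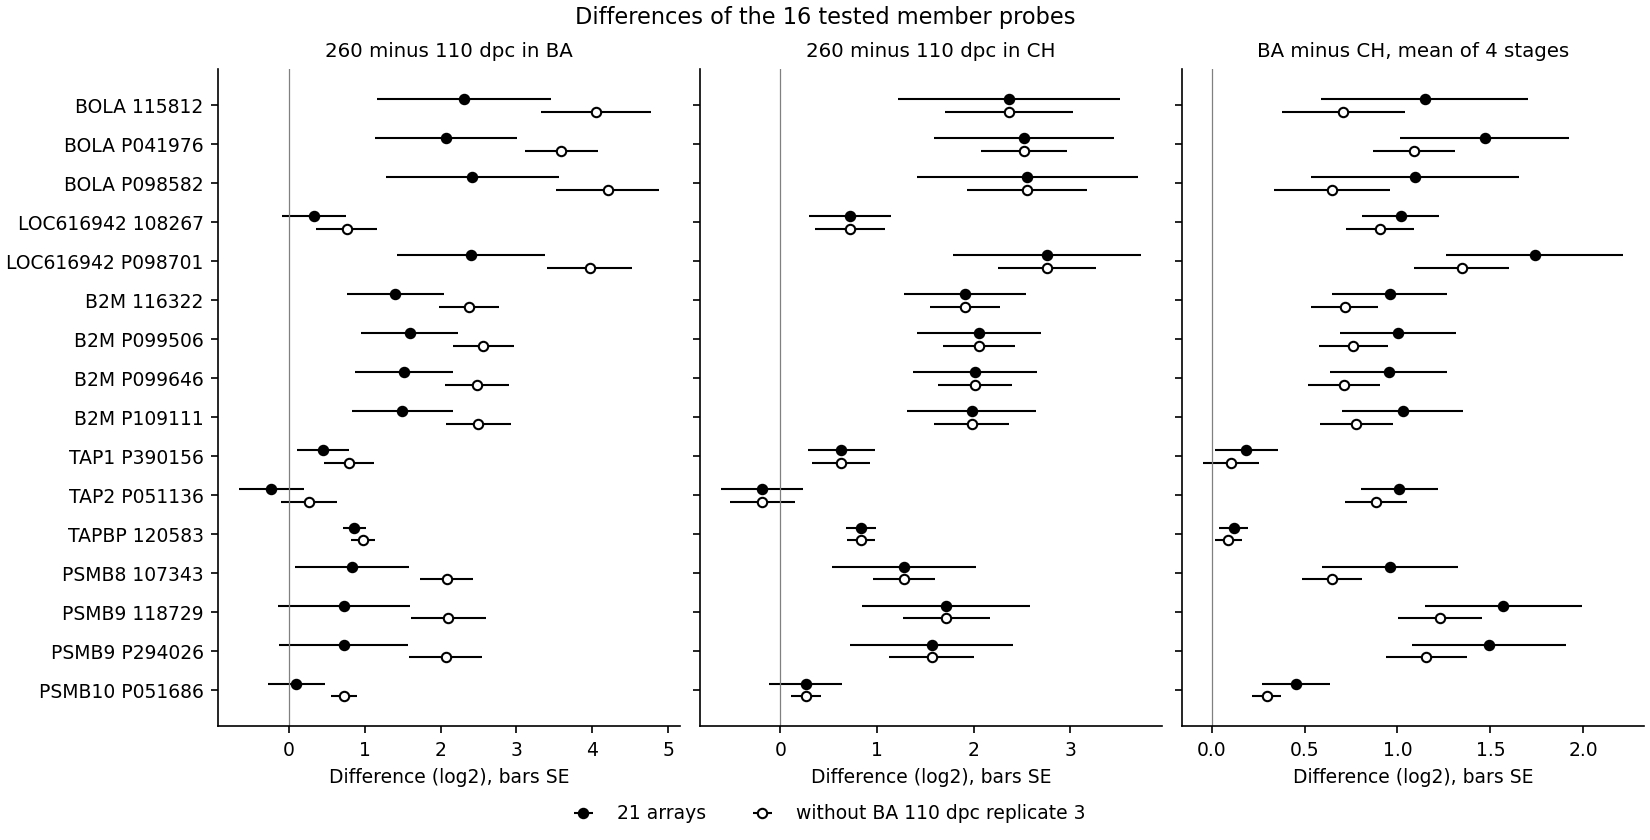
Differences in normalized log2 intensity for the 16 tested member probes, 260 minus 110 dpc in BA (left) and in CH (middle) and the average of BA minus CH over 4 stages (right); filled points are from all 21 arrays, open points without BA 110 dpc replicate 3, and bars are ± SE. Without that array the BA stage differences are larger, for example 2.06 in place of 0.72 for *PSMB9*, and the breed differences smaller, 1.16 in place of 1.49.

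By stage, the breed difference over the 16 probes had a median of 1.11 at 110 dpc, 1.36 at 180 dpc, 0.82 at 210 dpc and 0.66 at 260 dpc. For *PSMB9* it was 1.89, 1.98, 1.05 and 1.05, and for *BOLA* A_73_115812 0.76, 2.95, 0.17 and 0.70 in the same order. At 210 dpc the other *BOLA* probes gave 1.13 (A_73_P041976) and 0.38 (A_73_P098582). The value at 110 dpc became 0.55 for *PSMB9* and -0.98 for *BOLA* without BA 110 dpc replicate 3. At 180 dpc, where both BA foetuses were by Fallou, every BA foetus exceeded every CH foetus for 14 of the 16 probes, against 11.9% of all probes. At 110 dpc this held for 1 of 16, against 11.7%, at 210 dpc for 4 of 16, against 5.62%, and at 260 dpc for 7 of 16, against 8.9%. It held at both 180 and 210 dpc for 4 of 16, against 1.07%. No single stage gave a member probe past the adjusted threshold of limma in BA over CH, and of all tested probes 46 passed at 110 dpc (0.228%) and 0 at each later stage.

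The arrays lay on 6 slides, of which 5 held both breeds. With each value taken relative to its stage mean, BA was higher than CH on all 5 of these slides for 8 of the 10 genes. Among the 8 is *JSP.1*, for which some CH foetuses were not well above background. The share of all tested probes that did so was not counted. Since the breed difference chose the genes and the slides hold the same arrays, nothing is read from this count. The within-slide difference was 0.93 to 1.88 for *PSMB9*, 0.46 to 1.34 for *B2M*, 0.63 to 1.28 for *TAP2*, 0.84 to 2.68 for *LOC616942* and 0.02 to 0.23 for *TAPBP*. For *BOLA* it ran from -0.66 to 2.06, higher in BA on 4 slides, and for *TAP1* from -0.35 to 0.52, higher on 3. Other probes of these genes differed, since *BOLA* A_73_P041976 was higher in BA on all 5 slides (0.79 to 2.56) and so were *TAP1* A_73_P035801 (0.32 to 1.92) and A_73_P337561 (0.50 to 1.78). Each slide held few foetuses, and the sires differed between the breeds on every slide, so sire and breed cannot be told apart.

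*JSP.1*, a class I heavy chain gene, differed from the other genes in how its values fell among CH foetuses. For A_73_P296616 the CH foetuses read -4.72 and 2.50 at 110 dpc, 6.65, 4.49 and 5.86 at 180 dpc, -3.99, -4.38 and 6.58 at 210 dpc, and 6.02, 8.34 and -0.23 at 260 dpc. The BA foetuses read 3.07, 5.50 and 9.19 at 110 dpc, 7.65 and 7.08 at 180 dpc, 8.29, 5.46 and 7.91 at 210 dpc, and 8.36 and 8.03 at 260 dpc. Thus 4 CH foetuses, at 3 different stages, read below 0 and 3 of them were not well above background, whereas all BA foetuses and the other 7 CH foetuses read 2.50 or more. In those 4 foetuses *BOLA* read 5.11 to 8.80 and *B2M* 5.93 to 8.24, ranges that overlapped those of the other 7, at 5.43 to 7.74 and 5.79 to 7.96.

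All 4 low foetuses were by Indiana, which sired 7 of the 11 CH foetuses, and none was by Jourdan, which sired 4. The foetuses were set apart by the measured value, so this count is a description. Among Indiana's offspring the median was -0.23 and the range -4.72 to 6.58, and among Jourdan's 6.26 and 2.50 to 8.34. The offspring of Fallou ranged from 3.07 to 9.19 and those of Oulou from 5.50 to 8.36. In limma's fit over all 43653 probes, without the filter, Indiana minus Jourdan was -4.59 (SE 2.31, adjusted p = 0.844) for this probe, and the sire difference did not pass the threshold.

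**Figure D4:**
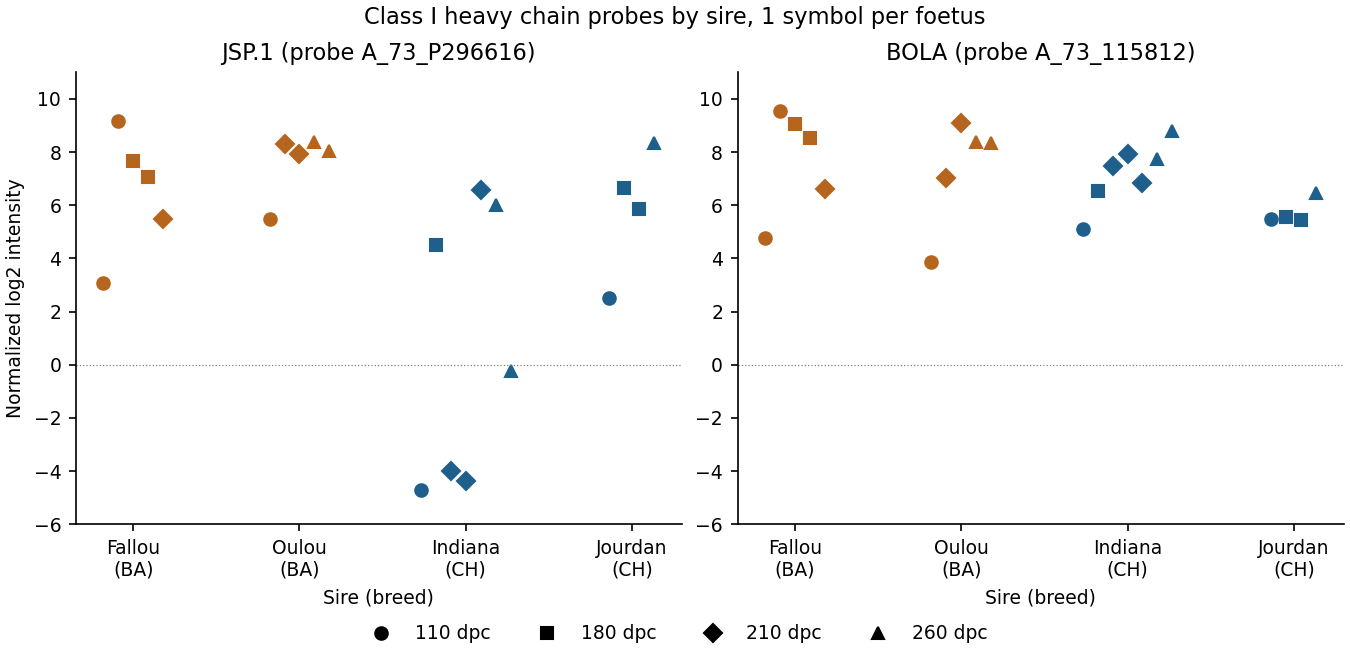
Normalized log2 intensity of *JSP.1* (A_73_P296616, left) and *BOLA* (A_73_115812, right) in each foetus, by sire; points are foetuses, with the marker shape giving the stage and the colour the breed. For *JSP.1*, 4 of the 7 offspring of Indiana read below 0 and no other foetus did, while for *BOLA* the same foetuses lay among the rest.

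The 3 *JSP.1* probes did not read alike. After group means were removed, A_73_P047531 correlated with A_73_P296616 at r = 0.91 over 21 arrays and A_73_112038 at r = 0.27. A_73_P047531 was below 0 in 5 of Indiana's 7 and 1 of Jourdan's 4 offspring, and in 1 of 5 of Fallou's and 1 of 5 of Oulou's. A_73_112038 was below 0 in 4 of Indiana's 7, 3 of Jourdan's 4, 1 of Fallou's 5 and 1 of Oulou's 5 offspring. Its Indiana minus Jourdan difference was 0.48 (SE 0.39) without BA 110 dpc replicate 3, so this probe did not share the split by sire. The stage difference of A_73_P296616 was 5.83 in CH and 2.28 in BA (SE 3.05), or 3.91 in BA without BA 110 dpc replicate 3, and its breed difference was 5.01 (SE 1.49). The CH means include the 3 foetuses that were not well above background, so the sizes of these differences and of the sire difference are uncertain, and leaving out 1 array moved the CH stage difference to 2.22 (without CH 110 dpc replicate 1) or 9.44 (without CH 110 dpc replicate 2). The CH foetuses spread widely for this probe, with an SD of 5.11 at 110 dpc (n = 2) and 4.43 at 260 dpc (n = 3). A_73_112038 was not well above background in either CH foetus at 110 dpc and was at least 10.9-fold higher in CH at 260 dpc. For A_73_P047531 the same calculation gave 6.22-fold, with only 2 of the 3 CH foetuses at 260 dpc well above background, so this is no firm lower bound. At 110 dpc the calculation for BA over CH gave 4.83-fold for A_73_112038 and 11.4-fold for A_73_P047531, with a BA mean that holds replicate 3. For A_73_112038 only 2 of the 3 BA foetuses were well above background. Without that array the log2 difference was 0.40 for A_73_112038 and 3.09 for A_73_P047531.

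Whether the stage difference itself differed between breeds was not used to choose the genes and could be tested. Sex was not balanced over the groups compared, since the males were at 110 dpc in BA and at 260 dpc in CH. The 260 minus 110 dpc difference in BA less that in CH was -0.06 (SE 1.62, adjusted p = 0.994) for *BOLA*, -0.51 (SE 0.90, 0.943) for *B2M* and -0.84 (SE 1.20, 0.925) for *PSMB9*. By limma, 0 of the 16 member probes passed the adjusted threshold, against 0% of all tested probes. An unadjusted p under 0.05 was found for 0 of the 16, against 7.09% of all tested probes. The median was -0.42 with 1 of 16 above 0. Without BA 110 dpc replicate 3 it was 0.46 with 15 of 15 above 0, and again 0 passed, so 1 array set the sign of this contrast.

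Male minus female, with the 8 groups as a covariate, gave a median of 0.39 over the 16 probes, with 15 higher in males. Of the 8 males, 1 was BA 110 dpc replicate 3, and without it the median was 0.03 with 9 of 15 higher in males. By limma 0 of 16 passed the adjusted threshold, against 0.0695% of all tested probes. An unadjusted p under 0.05 was found for 1 of 16, against 8.36% of all tested probes. That probe was *LOC616942* A_73_108267, with 0.52 (SE 0.23, adjusted p = 0.556).

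Offspring of the sires were compared within breed, with the 8 groups as a covariate. Only groups that held both sires inform such a contrast. These were 110 and 210 dpc in BA, and 110, 180 and 260 dpc in CH. Fallou minus Oulou gave a median of 0.16 over the member probes, and Indiana minus Jourdan -0.06. BA 110 dpc replicate 3 was by Fallou, and without it the Fallou minus Oulou median was -0.61, with 2 of 15 above 0 and again 0 passing, so its direction rested on that array. By limma 0 of 16 passed the adjusted threshold in each, against 0% of all tested probes for the BA sires and 0.00497% for the CH sires. An unadjusted p under 0.05 was found for 0 of 16 in each, against 4.97% and 5.37% of all tested probes. *BOLA* differed by 0.92 (SE 1.09, adjusted p = 0.950) between the BA sires, or -0.44 without BA 110 dpc replicate 3. This BA value was -1.43 without BA 110 dpc replicate 2 and 3.28 without BA 210 dpc replicate 2, so it rested on single arrays. Between the CH sires *BOLA* differed by 0.94 (SE 0.93, adjusted p = 0.970).

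Several of the genes varied together among foetuses of the same breed and stage. After group means were removed, *PSMB8* and *PSMB9* had r = 0.98 over 21 arrays, *B2M* and *PSMB9* r = 0.94, *LOC616942* and *PSMB9* r = 0.94, and *BOLA* and *B2M* r = 0.86. Without BA 110 dpc replicate 3 these became 0.92, 0.78, 0.77 and 0.54. Of the 36 pairs among the 9 genes other than *JSP.1*, 25 had r above 0.5 with that array and 12 without it. *TAP1* A_73_P390156 had r of -0.55 to *TAPBP* and -0.47 to *BOLA* on the remaining arrays. It correlated with the other *TAP1* probes at only 0.44 and 0.30, while those correlated with each other at 0.93, so its pattern is that of 1 probe. *JSP.1* had r = 0.04 with *BOLA*, which became -0.41 without the array, and of its 9 pairs 1 was above 0.5, with *TAP1*. The points share their array's scaling, and the correlations are a description.

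**Figure D5:**
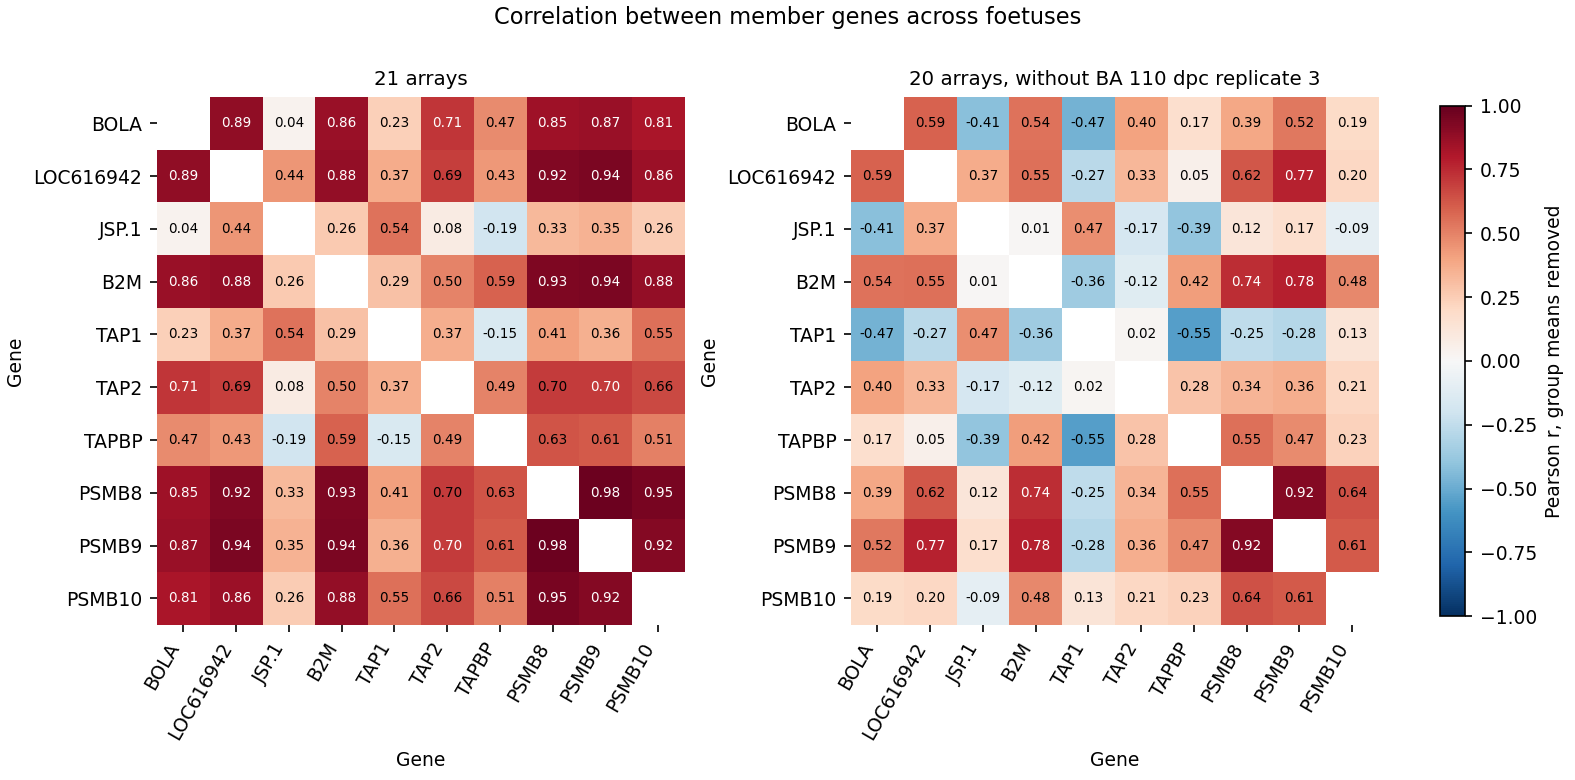
Pearson r between the 10 genes over foetuses after group means were removed, with 21 arrays (left) and without BA 110 dpc replicate 3 (right); colour gives r from -1 to 1. The pair *PSMB8* and *PSMB9* keeps a high r, 0.98 and 0.92, while 25 of 36 pairs without *JSP.1* lie above 0.5 on the left and 12 on the right.

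The genes whose pattern over 21 arrays was most like the mean of the 7 light chain, transport and proteasome genes were a separate class I gene listed as *BoLA* (r = 0.96), *RSAD2* (0.93), *IRF1* (0.90), *RTP4* (0.89) and the class II gene *BOLA-DRA* (0.88), of 14238 probes of named genes compared. After group means were removed they were *RTP4*, *IRF7*, *RSAD2*, *IRF9* and *UBA7*, all with r of 0.97. *RSAD2*, *RTP4* and *UBA7* are interferon-induced, and *IRF1*, *IRF7* and *IRF9* encode interferon regulatory factors. Without BA 110 dpc replicate 3 the group-centred r was 0.84 for *IRF9*, 0.82 for *RTP4*, 0.81 for *RSAD2* and *BOLA-DRA*, 0.80 for *IRF7*, 0.79 for *UBA7*, 0.73 for *BoLA* and 0.62 for *IRF1*.

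The wider pathway was followed in a list of 63 genes that are not among the 10, of which 47 had a probe and 38 were tested. In BA, 11 of the 38 were higher at 260 than at 110 dpc and 7 lower by limma's adjusted p, and in CH 9 were higher and 6 lower. Over all tested probes 27.6% were higher and 24.8% lower in BA, and 27.5% and 24.7% in CH. In both breeds 8 rose and 5 fell. The constitutive proteasome subunit *PSMB6* rose by 0.65 in BA (adjusted p = 0.00166) and 0.53 in CH (0.00687), and the assembly factor *POMP* by 0.55 (0.00277) and 0.60 (0.00126). The counterparts *PSMB5*, at 0.30 (0.0819) and 0.03 (0.878), and *PSMB7*, at 0.11 (0.567) and -0.18 (0.349), did not pass. The proteasome activator subunit *PSME2* fell by 0.61 in BA (0.0224) and 0.75 in CH (0.00668), and the BA value no longer passed without BA 110 dpc replicate 3, at -0.36 (0.109).

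Of the 9 loading and trimming genes tested, 1 rose and 4 fell in BA and 1 rose and 3 fell in CH. *CALR*, encoding calreticulin, fell by 0.64 in BA (adjusted p = 0.00209) and 0.75 in CH (0.000581). *HSPA5*, encoding the chaperone BiP, fell by 0.75 (0.0017) and 0.97 (0.000167), and *HM13*, encoding signal peptide peptidase, by 0.35 (0.013) and 0.29 (0.0342). *THOP1*, encoding a cytosolic peptidase that degrades peptides, was the 1 that rose in both breeds, by 0.75 (8.18e-05) and 0.71 (0.000149).

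Genes related to class I and class II also differed between ages. The class I-like *FCGRT*, encoding the neonatal Fc receptor, rose by 1.51 in BA (adjusted p = 5.93e-06) and 1.39 in CH (1.43e-05), and *PROCR*, encoding the endothelial protein C receptor, by 1.56 (9.86e-08) and 1.81 (1.69e-08). Of the 7 class II genes tested, 3 rose in BA and 4 in CH. Among them *CD74*, the invariant chain, rose by 1.74 (0.000476) and 2.09 (8.18e-05), *BOLA-DRA* by 1.52 (0.014) and 2.12 (0.00142), and *BOLA-DMB* by 0.96 (0.0443) and 1.45 (0.00421). The BA value of *BOLA-DRA* was 2.29 without BA 110 dpc replicate 3, and *BOLA-DMB* was then below the filter. Of the 13 transcriptional regulators tested, *NFKB1* fell in both breeds, by 0.33 (0.0158) and 0.46 (0.00192). *IRF1*, an activator of class I genes, rose by 1.60 in BA (0.0133), or 2.41 without BA 110 dpc replicate 3, and differed by 1.17 in CH (0.061), and *NLRC5* had no matched probe.

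Between breeds no pathway gene passed the threshold. By limma 0 of the 38 passed the adjusted threshold in the average breed difference, against 0.358% of all tested probes in either direction, with a lowest adjusted p of 0.14 and 8 at an unadjusted p under 0.05, against 12.5% of all tested probes. In the difference between the breeds' stage differences 0 of 38 passed and 2 had an unadjusted p under 0.05, against 7.09% of all tested probes.

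Marker lists of other cells in the muscle gave these values beside the differences. No listed gene of leukocytes, endothelium, skeletal muscle, fibroblasts, erythroid cells or the interferon response passed limma's adjusted threshold between breeds. At an unadjusted p under 0.05 were 3 of 12 tested leukocyte genes, 2 of 11 endothelial, 2 of 11 muscle, 1 of 8 fibroblast, 0 of 4 erythroid and 5 of 8 interferon response genes, against 12.5% of all tested probes. Between 110 and 260 dpc, 9 of 11 muscle genes rose in each breed. Of the leukocyte genes, 2 rose and 3 fell in BA and 2 rose and 5 fell in CH, and of the endothelial genes 5 rose in BA and 2 in CH, with 1 falling in each. Of the interferon response genes none rose in either breed, while 2 fell in BA and 1 in CH. BA 110 dpc replicate 3 lay above the mean of replicates 1 and 2 for all 14 interferon response genes, by a median of 5.38. It also did so for all 23 leukocyte genes, by a median of 0.98. The BA counts of these lists include that array and were not taken without it, so no direction is read from them. What part these cells have in the member differences was not tested.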

How the data were processed

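The deposited scanner files hold intensity values that the authors made with Agilent Feature Extraction 10.7, with background and multiplicative detrending, no background subtraction and no scaling between arrays. The authors' deposited value table holds log2 intensity. After removal of control spots and of 258 values that the scanner software had called outliers, spots of the same probe were averaged. The log2 of the processed signal was reduced by the array's 75th percentile, which lay between 525 and 1174 intensity units, and 2.69 was added. RefSeq accessions and the ARS-UCD2.0 annotation gave the gene names, and no coordinates are printed because the array's design predates that assembly. The labels gave 8 groups, 1 for each breed and stage. limma 3.58.1 in R 4.3.3 fitted 8 group means, with 13 residual and 3.79 prior degrees of freedom, after tests on simulated data. Bounds for probes not well above background used the lowest signal well above background on each array. The genes and lists were chosen with earlier results of these data known. Pathway genes were named as the 3 per sub-list and direction with the lowest adjusted p among those passing in both breeds, plus *PSMB5*, *PSMB6*, *PSMB7*, *NLRC5* and *IRF1*. Alternatives covered background correction, scaling, the authors' table, filters, sex, sire, slide, scan day, replicate number, variance model, females alone and each array left out. Promoter motifs and probe sequences were not analysed here.

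Replicate numbers did not pair the samples. The median correlation of deviations from group means was 0.03 over 66 pairs of arrays with the same number and -0.00 over 126 other pairs. The number of arrays limits the precision.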

Additional observations from a re-analysis of the deposited data

How the results depend on the processing

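For the stage difference in BA, where 3 member probes passed, the count was 0 with the authors' value table and 1 with normexp correction, quantile normalization, no filter, a filter on detection, sire as a covariate, slide as a block, and trended and robust variance. It was 5 with sex as a covariate, 7 with median scaling and 9 with the replicate block, and, in alternatives chosen after seeing the data, 5 with scan day as a block and 12 without the 2 arrays of highest interferon response sums. With females alone it was 11. Leaving out 1 array gave 1 to 12, with 12 without BA 110 dpc replicate 3 and 1 without any of 16 other arrays.

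For CH, where 7 passed, the count was 1 with slide as a block, 3 with sex as a covariate, 11 with females alone and 11 without the 2 interferon-high arrays. Leaving out 1 array gave 1 to 11, with 1 without CH 110 dpc replicate 2, 2 without CH 110 dpc replicate 1, 3 without CH 260 dpc replicate 3 and 11 without BA 110 dpc replicate 3.

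For the average breed difference, where 2 passed, the count was 1 with normexp correction, quantile normalization, the authors' table and sex as a covariate. It was 0 with no filter, a filter on detection, sire as a covariate, slide as a block, scan day as a block, the replicate block, trended and robust variance, and females alone. Leaving out 1 array gave 0 to 5, with 5 without BA 110 dpc replicate 3, 4 without BA 110 dpc replicate 1 and 0 without any of 14 others. The cause of these changes was not tested.

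Of the pathway genes passing between stages, the 18 in BA became 10 and the 15 in CH 9 with the authors' table, and the CH count 9 with slide as a block. Leaving out 1 array gave 11 to 19 in BA, the lowest without BA 260 dpc replicate 2, and 12 to 16 in CH. Counts of 0, for the difference between the breeds' stage differences, for sex, for sires and for pathway genes between breeds, stayed 0 in each alternative that could be fitted. Gene values changed sign in 8 of 350 for the BA stage difference, 3 of 350 in CH and 1 of 350 between breeds. For the tested contrasts they did so in 56 of 350 for the difference between stage differences, 19 of 330 for sex, 46 of 340 for BA sires and 20 of 340 for CH sires. The sex and sire contrasts had fewer alternatives, since neither can be a covariate in its own comparison and females alone cannot give the sex contrast. The numbers did not pair the samples, so the replicate block carries no further reading.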
